A study of Homo sapiens with 17 samples.

Results

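miR-221 and miR-222 are microRNAs cut from neighbouring hairpins, MIR221 and MIR222, on the minus strand of the human X chromosome. They were taken as the minus-strand alignments of 18 to 26 nt inside the hairpin windows on build hg19, chrX:45605585-45605694 for MIR221 and chrX:45606421-45606530 for MIR222. The choice used positions and lengths only, not measured values. It found 78 distinct alignments, 37 in MIR221 and 41 in MIR222, among 5933012 distinct alignments of these lengths in 8 deposited tables.

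In the nucleus the nuclease Drosha, with its partner DGCR8, cuts a hairpin out of a longer primary transcript, and in the cytoplasm Dicer removes the loop. This leaves a duplex of a 5p and a 3p arm, of which Argonaute proteins keep mainly 1. Drosha sets the 5′ end of the 5p arm and the 3′ end of the 3p arm, and Dicer sets the other ends. The seed, bases 2 to 8, selects the messenger RNAs that are repressed. miR-221-3p and miR-222-3p share their seed and are known to repress KIT, a growth factor receptor of early blood cells, and CDKN1B, the cell cycle inhibitor p27. Both are known to decline as normal human progenitors mature into red cells.

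The cells were K562, an established human erythroleukemia line, with an inducible short hairpin RNA against Drosha. Cultures were given doxycycline (Dox) at 1 µg/mL for 3, 13 or 31 d, or were grown in parallel with water in its place for the same times; the Dox and the water cultures alike carried the Drosha hairpin. Per the labels these were independent biological replicates, with 2 Dox and water pairs at 3 d (numbers 1 and 3), 3 at 13 d and 3 at 31 d, and an untreated library was not analysed here. The erythroid genes that mark the line and the messenger RNA of DROSHA are not measured in tables of small RNA, so neither the cell type nor the knockdown was checked.

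Each table gives, for 1 day and replicate number, the ratio of 1 library to the other for every listed alignment. Whether Dox or water is on top is stated neither in the tables nor in the labels. The libraries are therefore called numerator and denominator, a log2 ratio above 0 means more in the numerator, and a common orientation of the 8 tables was assumed. The read numbers behind a ratio were not used, so the depth is unknown and counting error could not be computed. Between 73.2% and 93.1% of the alignments in a table had a ratio of 0. Whether alignments with no read in the denominator were left out of the tables was not checked.

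The hairpins are shown first because their arms, their shared seed and their 3′ ends carry the comparisons. They were read from RefSeq (GRCh38.p14), where both are 110 nt long, and were laid on the hg19 windows; capitals mark the arms.
miR-221 hairpin: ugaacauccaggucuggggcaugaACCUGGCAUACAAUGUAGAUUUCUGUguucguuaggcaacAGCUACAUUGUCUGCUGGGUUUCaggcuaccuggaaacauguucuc
miR-222 hairpin: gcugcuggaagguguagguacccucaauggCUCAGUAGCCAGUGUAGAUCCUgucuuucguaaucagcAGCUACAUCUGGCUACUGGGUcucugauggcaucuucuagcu
In the arms below capitals mark the seed. The 3p arms and miR-222-5p are mature entries of RefSeq, and for miR-221-5p the longest form above 0 in all 8 tables was read from the hairpin.
miR-221-5p: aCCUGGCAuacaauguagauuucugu
miR-221-3p: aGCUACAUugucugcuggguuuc
miR-222-5p: cUCAGUAGccaguguagauccu
miR-222-3p: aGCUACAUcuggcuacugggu

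The 3p arms were identical over their first 8 bases. Compared position by position from the 5′ end with no gap allowed, they were alike at 11 of 21 bases. A gap past base 8 would raise that number, and a gapped comparison was not made. Among 2370 mature human microRNAs in RefSeq, the seed GCUACAU was found in these 2. Past the seed the arms can be told apart: the first 18 bases of each of the 4 arms occurred in its own hairpin alone, among 1562 RefSeq hairpins and 206694 GENCODE v29 transcripts. On hg19, miR-221-3p lies at X:45605608-45605630, miR-222-3p at X:45606442-45606462 and miR-222-5p at X:45606479-45606500. The windows are 726 nt apart. On GRCh38 both hairpins lie inside the long non-coding host gene MIR222HG and in none of the 4 exons of its 2 GENCODE v29 transcripts, hence in intronic sequence. RNAfold gave minimum free energies of -46.5 kcal/mol for MIR221 and -53.8 kcal/mol for MIR222.

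Of the 78 alignments, 31 belonged to miR-222-3p, 17 to miR-221-3p, 15 to miR-221-5p and 7 to miR-222-5p, and 8 lay in no arm. Of the 78, 21 were above 0 in every one of the 8 tables, and these are the ones that could be tested. Another 24 had a ratio of 0 wherever they were listed, and 26 were listed in 1 table alone. The 21 were 8 forms of miR-221-3p of 19 to 26 nt, 8 of miR-222-3p and 5 of miR-221-5p. Outside the hairpins almost nothing was listed: within 2 kb of the windows the minus strand held 0 to 4 alignments in a table, counted at all lengths, each with a ratio of 0.

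**Figure D1:**
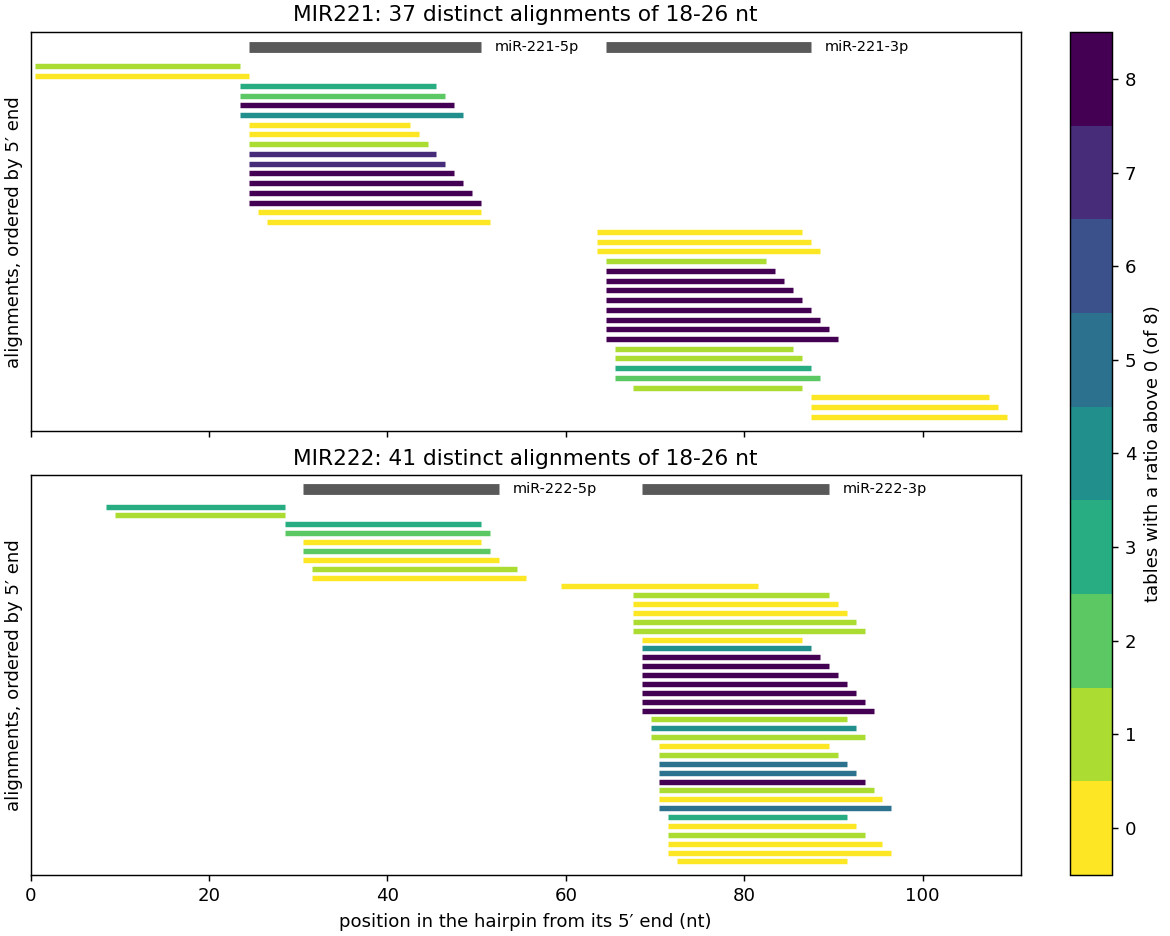
Each bar is 1 distinct alignment of 18 to 26 nt, drawn at its place in the hairpin (x axis, nt from the 5′ end) and coloured by the number of tables, of 8, in which its ratio was above 0; grey bars mark the arms. In MIR221 the forms found in all 8 tables stack on both arms, and in MIR222 they stack on the 3p arm alone.

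miR-222-5p, the partner strand of miR-222-3p in its duplex, was the sparse arm. It was listed in 6 tables and had a ratio above 0 in 5, with no form in all 8, so it could not be tested. Of its forms, 2 began 2 bases upstream of the RefSeq end. The 22 nt form of these is shown because its own bases 2 to 8, in capitals, differ from those of the RefSeq entry.
miR-222-5p, 22 nt, 5′ end at -2: gGCUCAGUagccaguguagauc
In the authors' deposited tables this form had a log2 ratio of 0.42 at 13 d number 3, 0.42 at 31 d number 2 and 0.13 at 31 d number 3. These values were above 0, and the other 5 tables did not list it. The 23 nt form with the same 5′ end had, in the authors' deposited tables, -0.58 at 13 d number 3 and -2.87 at 31 d number 2, on the other side of 0 in the same tables. Forms with the RefSeq 5′ end filled 7 entries of the tables, of which 2 were above 0.

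miR-222-3p was the steady arm of the pair of hairpins. The value of an arm in a table was the median log2 ratio of the forms that share its main 5′ end and were above 0 in all 8 tables. For miR-222-3p it was 0.79 and 2.40 in the 3 d tables, 1.06, 1.50 and 0.78 in those of 13 d, and 0.92, 0.54 and 2.01 in those of 31 d. All 8 values were above 0, and the highest came from 3 d number 3 and 31 d number 3. In bulk RNA a difference in the mix of cells and one in the RNA per cell cannot be told apart. The means were 1.60 ± 1.14 at 3 d (SD, n = 2 tables, a ratio of 3.03), 1.12 ± 0.36 at 13 d (n = 3, 2.17) and 1.16 ± 0.77 at 31 d (n = 3, 2.23).

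Despite its steady sign, miR-222-3p passed the threshold at no time. The adjusted p of limma, fitted over 1078 groups of alignments that share a 5′ end, was 0.0828 for 3 d, 0.127 for 13 d and 0.122 for 31 d, against a threshold of 0.05. With it, 0 of the 3 testable arms were called at any time; the limma p before adjustment was below 0.05 for 3 of 3 arms at 3 d and for 0 of 3 at 13 and at 31 d. Calls were common elsewhere: limma called 26.3% of the groups for 3 d, 41.5% for 13 d and 36% for 31 d. Before adjustment 495 of the 1078 groups had a limma p below 0.05 for 3 d, 521 for 13 d and 483 for 31 d.

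The whole tables were shifted against each other, so each arm was also set against its table. The median log2 ratio of all 1078 groups was highest in the 3 d tables (0.70 for number 1 and 1.67 for number 3) and lowest at 31 d number 2 (-1.26) and 13 d number 3 (-1.24). miR-222-3p was above the median of its table in 8 of 8 tables, by 0.089 to 2.73. Between 52.5% and 92.8% of the groups of a table had a lower value, so that its rank was moderate rather than extreme. With each table centred on its median, miR-222-3p averaged 0.41 at 3 d, 1.43 for 13 d (limma adjusted p = 0.0240) and 1.85 for 31 d (0.00853). Of the settings run, centring alone gave a call at 13 or 31 d. Centred, 546 of the 1078 groups were called at 13 d (234 higher) and 453 at 31 d (220 higher), so such a call was common.

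miR-221-3p, which carries the same seed, was less steady. Its values were 0.65 and 2.76 in the 3 d tables, 0.57, 0.34 and -0.95 in those of 13 d, and -0.21, 0.59 and 1.19 in those of 31 d. It was above 0 in 6 of 8 tables, and the exceptions were 13 d number 3 and 31 d number 1. The means were 1.71 ± 1.49 at 3 d (SD, n = 2 tables; limma adjusted p = 0.0785), -0.01 ± 0.82 at 13 d (n = 3; limma adjusted p = 0.990) and 0.52 ± 0.70 at 31 d (n = 3; limma adjusted p = 0.508). Against the median of its table it was higher in 6 of 8. The sign at 13 d turned on centring, to 0.30, and without 13 d number 3, to 0.46.

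miR-221-5p, the partner strand of miR-221-3p, varied most between tables. It stood at 1.51 and 2.01 in the 3 d tables, -0.34, 0.71 and -2.33 in those of 13 d, and 0.073, -2.70 and 0.32 in those of 31 d. The lowest values, from 13 d number 3 and 31 d number 2, lay more than 1 below the other tables of their day. The means were 1.76 ± 0.35 at 3 d (SD, n = 2 tables; limma adjusted p = 0.105), -0.66 ± 1.54 at 13 d (n = 3; limma adjusted p = 0.466) and -0.77 ± 1.68 at 31 d (n = 3; limma adjusted p = 0.388). Without 13 d number 3 the 13 d mean was 0.18, and without 31 d number 2 the 31 d mean was 0.20, so that both negative signs rested on 1 table each.

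**Figure D2:**
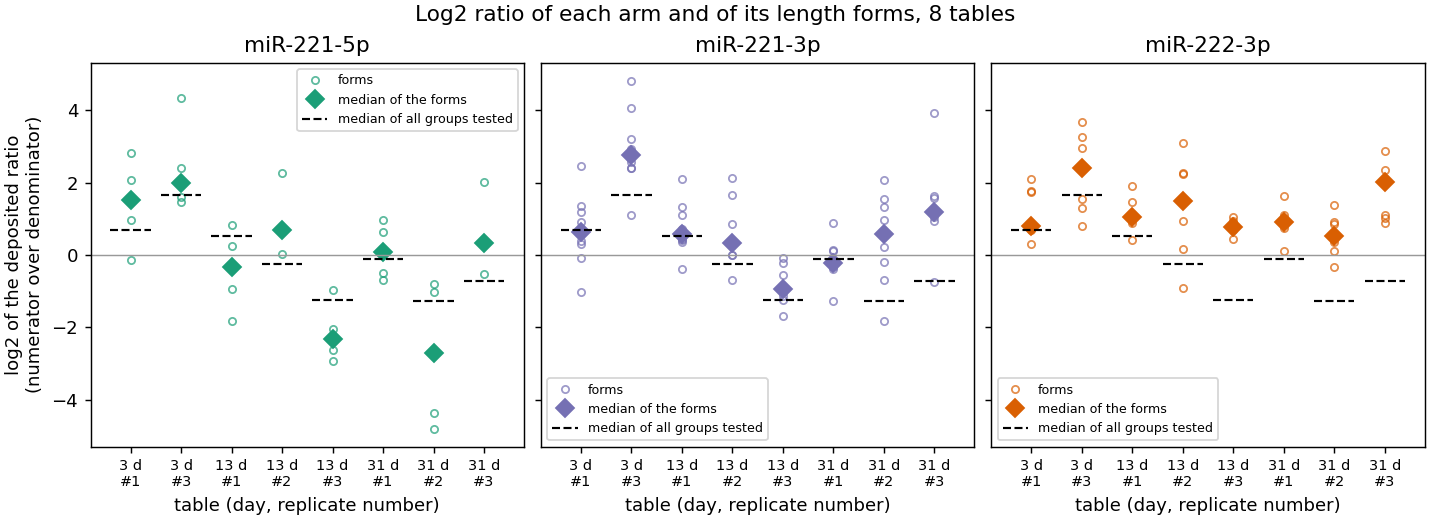
Log2 of the deposited ratio, numerator over denominator (y axis), in each table (x axis, day and replicate number) for miR-221-5p, miR-221-3p and miR-222-3p. Open circles are the length forms, diamonds their median and dashed lines the median of all 1078 groups; miR-222-3p stands above 0 and above the dashed line in all 8 tables, by 0.089 to 2.73 for the line.

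Between times no arm was called (limma p before adjustment below 0.05 for miR-221-5p against 3 d alone), while 42.4% of all groups differed between 13 and 3 d, 43.2% between 31 and 3 d and 0% between 31 and 13 d by limma (116 groups at an unadjusted p under 0.05 in the last). An unadjusted limma p under 0.05 was met by 530 of all groups between 13 and 3 d and by 550 between 31 and 3 d. For miR-221-5p the differences from 3 d were -2.41 by 13 d (limma adjusted p = 0.0787) and -2.53 by 31 d (0.0635). For miR-221-3p they were -1.72 by 13 d (limma adjusted p = 0.155) and -1.18 by 31 d (0.308). miR-222-3p differed from 3 d by -0.48 at 13 d and -0.44 at 31 d (limma adjusted p = 0.697 and 0.699), and both turned above 0 on centring, to 1.02 and 1.44.

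The 2 arms with 1 seed were then compared inside each table, where a shift of the whole table cancels. miR-221-3p minus miR-222-3p was -0.14 and 0.36 in the 3 d tables, -0.49, -1.16 and -1.73 in those of 13 d, and -1.13, 0.054 and -0.83 in those of 31 d. It was below 0 in 6 of 8 tables and in 3 of 3 at 13 d. The mean was -0.63 ± 0.71 (SD, n = 8 tables; exact sign-flip permutation, two-sided, p = 0.0469), which after adjustment over 8 such tests was 0.375 and did not pass. With 2 or 3 tables a day, this test cannot give a p under 0.5 or 0.25.

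The forms of the 2 arms had the same lengths apart from the 19 nt form of miR-221-3p, and the same difference was also taken at matched lengths. At 23 nt, the RefSeq length of miR-221-3p, it was 0.21 and 0.17 in the 3 d tables, -1.37, -1.49 and -1.91 in those of 13 d, and -1.20, -1.18 and -1.08 in those of 31 d. The 3 d tables and the 6 later tables did not overlap. The same held at 22, 24 and 25 nt, but not at 20, 21 and 26 nt. How often other pairs of alignments separate alike was not counted. At 24 nt it was below 0 in 7 of 8 tables and at 25 and 26 nt in 6 of 8. At the shorter lengths there was no such lean: at 22 nt 4 of 8 tables were below 0, at 20 nt 4 of 8 and at 21 nt 2 of 8. These lengths were looked at after the arm values were known and were not tested one by one.

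**Figure D3:**
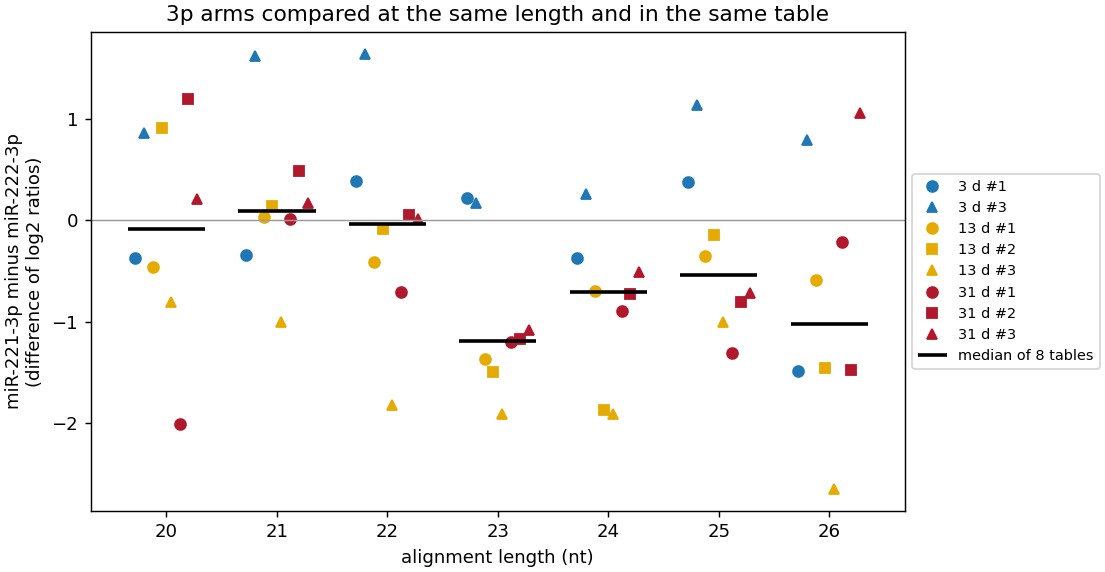
Difference of the log2 ratios, miR-221-3p minus miR-222-3p (y axis), at each length that both arms have (x axis, nt); each point is 1 table, coloured by day and shaped by replicate number, and black bars are medians of 8 tables. At 23 nt the 6 tables of 13 and 31 d lie between -1.91 and -1.08 and both 3 d tables lie above 0.

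Within MIR221, the arms differed by -0.71 ± 1.30 (miR-221-5p minus miR-221-3p, SD, n = 8 tables; exact sign-flip permutation, two-sided, p = 0.148). The difference was below 0 in 5 of 8 tables. It ran from -3.29 at 31 d number 2 to 0.86 at 3 d number 1, a spread wider than the mean.

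At the 3′ end, which Drosha sets on a 3p arm, miR-222-3p ran well past its RefSeq entry. The forms are shown as a ladder with the bases past the RefSeq end in capitals; all 6 had a deposited ratio above 0 in all 8 tables.
miR-222-3p, 21 nt: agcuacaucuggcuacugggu
miR-222-3p, 22 nt: agcuacaucuggcuacuggguC
miR-222-3p, 23 nt: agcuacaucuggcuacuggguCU
miR-222-3p, 24 nt: agcuacaucuggcuacuggguCUC
miR-222-3p, 25 nt: agcuacaucuggcuacuggguCUCU
miR-222-3p, 26 nt: agcuacaucuggcuacuggguCUCUG
In the authors' deposited tables the 21 nt form had log2 ratios of 0.73 and 0.80 in the 3 d tables, 0.40, 0.17 and 0.45 in those of 13 d, and 0.11, 0.86 and 0.88 in those of 31 d. The 22 nt form, 1 base longer, ran from 0.70 at 13 d number 3 to 1.31 at 3 d number 3. Both were above 0 in 8 of 8 tables, and each spanned less than 1 log2 unit.

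The longer forms of miR-222-3p spread more between tables. In the authors' deposited tables the 24 nt form had log2 ratios of 1.75 and 2.95 in the 3 d tables, 1.06, 2.24 and 1.04 in those of 13 d, and 0.76, 0.54 and 2.10 in those of 31 d. The 25 nt form had 2.09 and 3.69 in the 3 d tables, 1.47, 2.27 and 0.78 in those of 13 d, and 0.99, 0.12 and 2.35 in those of 31 d, again from the authors' deposited tables. Both were called higher in the numerator at 3 d, at 2.35 ± 0.85 (SD, n = 2 tables; limma adjusted p = 0.0460) and 2.89 ± 1.13 (n = 2; limma adjusted p = 0.0234), which are ratios of 5.10 and 7.43. Neither was called at 13 or 31 d as deposited. Both calls were lost on centring (1.14 and 1.68, limma adjusted p = 0.332 and 0.139). Without 3 d number 1 they were 2.95 (limma adjusted p = 0.0951) and 3.69 (0.0577), and without 3 d number 3 they were 1.75 (0.357) and 2.09 (0.297). For the 24 nt form the call was also lost without 13 d number 2 or 3, or 31 d number 1 or 3 (limma adjusted p = 0.0508 to 0.0626).

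All alignments depended on length, so each form was set against the median of all tested alignments of its own length in the same table. That median ran furthest at 31 d number 2, at 0.96 for 18 nt and -3.44 for 26 nt. Against it, miR-222-3p was above in 8 of 8 tables at 24 nt (by 0.49 to 2.80), at 25 nt (by 0.64 to 3.09) and at 26 nt (by 0.92 to 3.26). At 20 nt it was above in 5 of 8, at 21 nt in 7 of 8, at 22 nt in 6 of 8 and at 23 nt in 7 of 8. The slope of the log2 ratio over the forms of miR-222-3p was 0.23 ± 0.25 per nt of length (SD, n = 8 tables), above 0 in 7 of 8. The exact sign-flip permutation, two-sided, gave p = 0.0391, and 0.469 after adjustment over 12 tests, which did not pass.

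**Figure D4:**
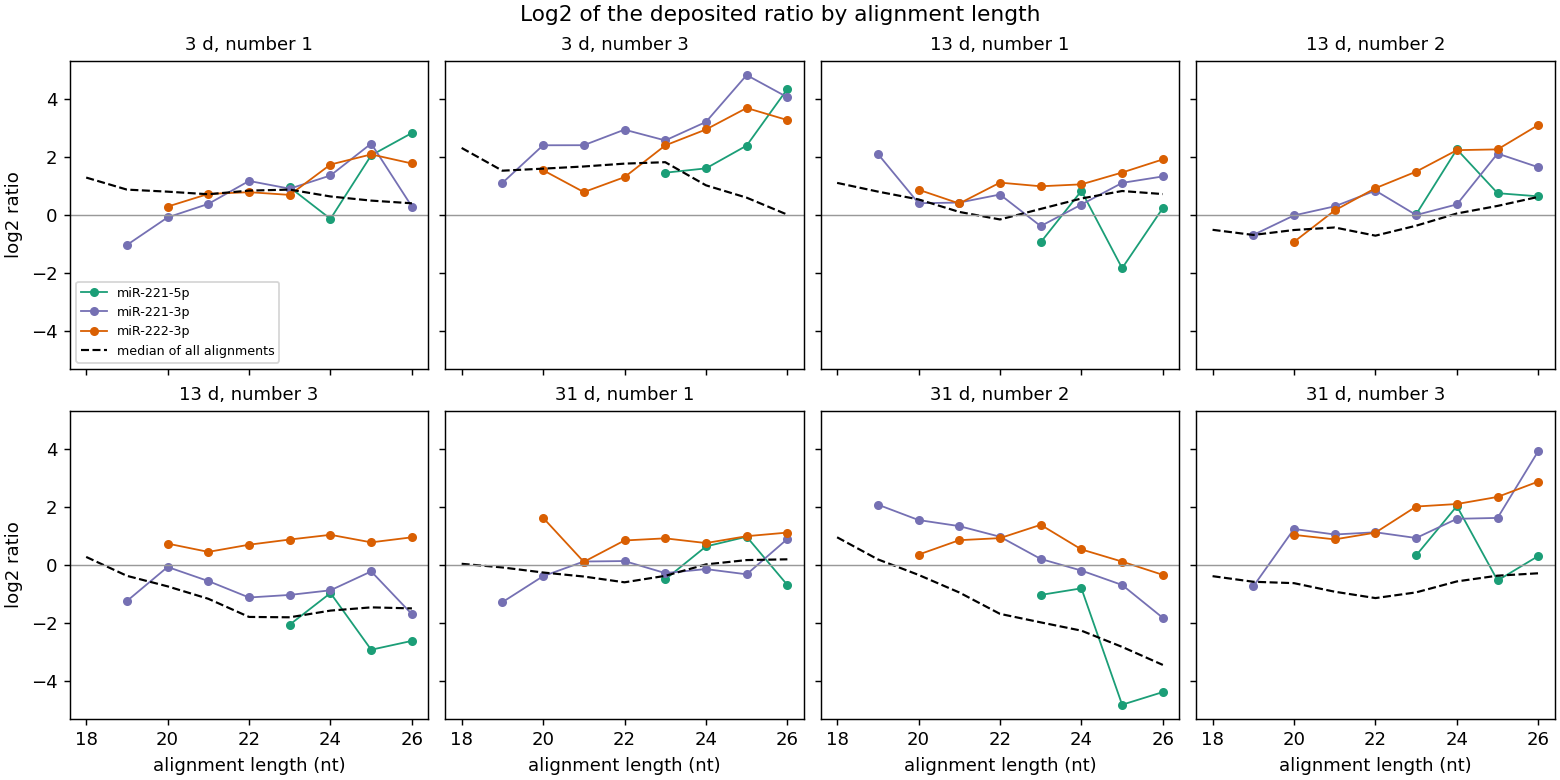
Log2 of the deposited ratio (y axis) against alignment length (x axis, nt) in each of the 8 tables, for the forms of miR-221-5p, miR-221-3p and miR-222-3p with their main 5′ end; the dashed line is the median of all tested alignments of that length. From 24 nt on miR-222-3p lies above the dashed line in every table, and at 31 d number 2 the dashed line ends at -3.44.

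miR-221-3p has its RefSeq end at 23 nt, and its longer forms are shown likewise.
miR-221-3p, 23 nt: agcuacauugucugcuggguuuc
miR-221-3p, 24 nt: agcuacauugucugcuggguuucA
miR-221-3p, 25 nt: agcuacauugucugcuggguuucAG
miR-221-3p, 26 nt: agcuacauugucugcuggguuucAGG
In the authors' deposited tables the 23 nt form had log2 ratios of 0.91 and 2.58 in the 3 d tables, -0.37, 0.01 and -1.03 in those of 13 d, and -0.28, 0.21 and 0.93 in those of 31 d. The 25 nt form had 2.47 and 4.83 in the 3 d tables, 1.11, 2.12 and -0.22 in those of 13 d, and -0.32, -0.69 and 1.62 in those of 31 d in the authors' deposited tables. For the 25 nt form both 3 d tables stood above all 6 later ones. The median of all tested alignments did so too, at 0.82 and 1.60 against at most 0.59 (13 d number 1). Over alignments of 25 nt alone it did not, with 0.50 and 0.60 at 3 d and 0.83 at 13 d number 1. How many alignments separated alike was not counted.

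The 25 nt form of miR-221-3p was called higher in the numerator at 3 d, at 3.65 ± 1.67 (SD, n = 2 tables; limma adjusted p = 0.0106), a ratio of 12.5. It was lower at 31 d than at 3 d, by a log2 difference of -3.44 (limma adjusted p = 0.0342). On centring these were 2.43 (limma adjusted p = 0.0504) and -1.67 (0.255), and without 3 d number 3 they were 2.47 (0.253) and -2.26 (0.267). The difference between the times was also lost without 31 d number 1 (-3.18, limma adjusted p = 0.0850) or number 2 (-3.00, 0.0945). The 22 nt form was the only form of miR-221-3p above the median of its length in 8 of 8 tables, by 0.33 to 2.66. Over all its forms, the slope was 0.13 ± 0.32 per nt (SD, n = 8 tables; exact sign-flip permutation, two-sided, p = 0.305).

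The 26 nt form of miR-221-5p, at X:45605645-45605670, had the widest range of the 21 tested forms. In the authors' deposited tables its log2 ratio was 2.83 and 4.35 in the 3 d tables, 0.25, 0.65 and -2.61 in those of 13 d, and -0.69, -4.37 and 0.31 in those of 31 d. Both 3 d tables stood above all 6 others. It was called higher in the numerator at 3 d, at 3.59 ± 1.07 (SD, n = 2 tables; limma adjusted p = 0.0297), and was lower than at 3 d by a log2 difference of -4.16 on day 13 (limma adjusted p = 0.0366) and -5.17 on day 31 (0.0120). On centring these values were 2.38, -2.71 and -3.40 (limma adjusted p = 0.0971, 0.109 and 0.0595), none past the threshold. In the median of all tested alignments the 3 d tables were the highest too, at 0.82 and 1.60. In that of 26 nt alignments they were not, at 0.41 and 0.019 against 0.73 at 13 d number 1.

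The calls of that form also rested on single tables. Without 3 d number 3 they were 2.83, -3.40 and -4.42 (limma adjusted p = 0.325, 0.245 and 0.119). Without 3 d number 1 the 3 d value was 4.35 and the 13 d difference -4.92 (limma adjusted p = 0.102 and 0.0765), and without 13 d number 3 the 13 d difference was -3.14 (0.120). The form stood lowest at 13 d number 3 and 31 d number 2, whose medians of all 1078 groups were also the lowest, and the part of that shift in the result was not tested.

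At the 5′ end, which fixes the seed, each testable arm had 1 main position. It was X:45605630 for miR-221-3p and X:45606462 for miR-222-3p, both the RefSeq ends, and X:45605670 for miR-221-5p. The main ends of the MIR221 arms were 40 nt apart. Forms of miR-221-3p that began 1 base upstream were listed in 5 tables, always with a ratio of 0. For miR-222-3p, 8 forms began 2 bases downstream, and 1 of them was above 0 in all 8 tables. For miR-221-5p, 1 of 4 forms that began 1 base upstream was.

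Those 2 shifted forms are shown because a shifted 5′ end changes bases 2 to 8, in capitals; neither of these seeds is that of any of the 2370 RefSeq entries.
miR-222-3p, 23 nt, 5′ end at +2: cUACAUCUggcuacugggucucu
miR-221-5p, 24 nt, 5′ end at -1: aACCUGGCauacaauguagauuuc
The form of miR-222-3p ends at the same base as its 25 nt form. In the authors' deposited tables its log2 ratio was 4.36 and 3.72 in the 3 d tables, -0.10, 2.49 and 0.52 in those of 13 d, and 1.04, 0.32 and 0.25 in those of 31 d. Both 3 d tables lay above the 6 later ones, as they did in the median of all tested alignments of 23 nt. That median was 0.88 and 1.83 at 3 d and at most 0.22 later (13 d number 1).

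The shifted miR-222-3p form was called higher in the numerator at 3 d, at 4.04 ± 0.46 (SD, n = 2 tables; limma adjusted p = 0.00309), a ratio of 16.5 and the highest mean of the 21 forms at that time. Against 3 d it was lower, by a log2 difference of -3.07 on day 13 (limma adjusted p = 0.0397) and -3.51 on day 31 (0.0197). At 3 d it was the 1 called form that passed after centring as well (2.83, limma adjusted p = 0.0285), while the differences between times did not, at -1.62 and -1.73 (limma adjusted p = 0.256 and 0.242). Without 3 d number 1 the 3 d value was 3.72 (limma adjusted p = 0.0591). The 13 d difference was lost without either 3 d table, 13 d number 1 or 3 or 31 d number 3 (limma adjusted p = 0.0598 to 0.152), and the 31 d difference without either 3 d table or 31 d number 3 (0.0572 to 0.0965).

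Against the main 5′ end at the same length, the shift made no difference that passed a test. At the same length the 3′ end shifts as well, so this comparison does not separate the ends. The shifted miR-222-3p form minus the 23 nt main form averaged 0.22 ± 1.75 (SD, n = 8 tables; exact sign-flip permutation, two-sided, p = 0.766), above 0 in 4 of 8 tables. By day it averaged 2.49 for 3 d (3.66 and 1.32 in its tables), -0.16 for 13 d and -0.90 for 31 d, where 2 or 3 tables cannot pass the test. For miR-221-5p the difference was -0.18 ± 0.92 (exact sign-flip permutation, two-sided, p = 0.578), above 0 in 3 of 8. A p of this size with 8 tables does not show that the ends act alike.

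Over all 21 testable forms, 5 were called at 3 d, all higher in the numerator, against 24.8% of all 11342 alignments tested alike (21.4% called higher). The share of the forms is near that background. After centring 1 of 21 was called, and of all alignments 1159 were called higher and 1593 lower, in place of 2430 and 380. At 13 d 0 of 21 were called (32.1% of all), with 3 at an unadjusted limma p under 0.05, and at 31 d 0 of 21 (21.6% of all), with 1. Unadjusted, 4748 of the 11342 alignments were under 0.05 at 13 d and 3959 at 31 d. After centring limma called the 25 nt (1.75, adjusted p = 0.0477) and 26 nt (2.24, adjusted p = 0.0241) forms of miR-222-3p at 13 d and its 23 nt form (2.00, adjusted p = 0.0355) at 31 d. Among all 11342 alignments 3947 were then called at 13 d (1736 higher) and 2384 at 31 d (989 higher). Of the 21, all had a mean above 0 at 3 d, 16 at 13 d and 17 at 31 d, and after centring 14, 17 and 19. The shares of all alignments above 0 were 70.9%, 46.7% and 36.9%, and after centring 49.9%, 51.6% and 50.3%. Forms of the same arm overlap, so the 21 are not independent of each other. Between 13 and 3 d 2 forms were called, both lower at 13 d (32.3% of all, 29.2% lower), and between 31 and 3 d 3, all lower at 31 d (36.3% of all, 33% lower). After centring 0 of 21 were called in either contrast. Of all alignments 1778 were then higher and 2138 lower at 13 d, in place of 348 and 3311, and 1682 higher and 1520 lower at 31 d, in place of 375 and 3741. Between 31 and 13 d limma called 0 forms, with 0 at an unadjusted p under 0.05, and 0% of all alignments, with 1237 at an unadjusted p under 0.05. An alignment that fell to 0 in any numerator could not enter, so these counts cover only forms with a ratio above 0 in every table.

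The groups with values most like each 3p arm over the 8 tables were found by root-mean-square difference of the log2 ratios, among 1075 other groups. For miR-221-3p the nearest began at 5:159912379 on the plus strand (0.236), 9:139565105 plus (0.398), 7:130561528 minus (0.449), 3:160122542 plus (0.463) and 10:104196313 plus (0.473). For miR-222-3p they began at 7:145694484 plus (0.387), 1:117214409 plus (0.443), 1:224444772 minus (0.452), 10:104196315 plus (0.479) and 9:96938295 plus (0.518). The lists shared no position, though their chromosome 10 entries began 2 bases apart. The 3p arms themselves differed by 0.915, and 76 groups were nearer to miR-221-3p and 62 nearer to miR-222-3p than they were to each other.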

How the data were processed

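Small RNA libraries were cut from a gel between 20 and 40 nt, per the labels' protocols, and aligned with Bowtie2 2.2.9 to hg19, per the submitters' processing notes. The tables have no header. The authors deposited, beside the position of each alignment, the ratio (fold) of 1 library to the other, which is the value used. The 32 other value columns of the 8 tables name no library and were not used, so the planned count test was replaced by limma on ratios. The placement of reads that match several positions is not stated.

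Alignments of 18 to 26 nt with a ratio above 0 in all 8 tables (11342) were put on the log2 scale with no pseudocount. Groups were at least 3 of them with 1 strand and 5′ end (1078), valued by their median. limma 3.58.1 (R 4.3.3, robust empirical Bayes) was fitted to all groups, and to all alignments, with 1 mean per day. It shares variance over features, so a p does not rest on the spread of 1 feature alone. P-values were two-sided and adjusted by Benjamini-Hochberg over all features of a contrast, with a threshold of 0.05. On simulated ratios with few changed features both fits returned the simulated means, but the fit to single alignments called no change at 3 d, and differences between times were not simulated. Differences within tables were tested by exact sign-flip permutation. Alternatives were centring, other lengths and arm definitions, each day alone and left-out tables. Those chosen after seeing the data were all listed lengths, medians of equal length, the RefSeq form alone, the mean over forms, groups of at least 1 form and, for forms and for differences between arms, centring, common lengths and the mean over forms. Named were the 4 arms, their forms above 0 in all 8 tables and the 5 nearest groups. Members and lists were chosen with earlier results of these data known. Between tables, 0% of the alignments tested had the same ratio. Folding used ViennaRNA 2.7.2, and tables were read with Python 3.11.15 and pandas 2.3.3.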

Additional observations from a re-analysis of the deposited data

Results flagged for a closer look

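Differences between times that passed limma's test were drawn from single forms. The 26 nt form of miR-221-5p differed from 3 d by -4.162 on day 13 (limma adjusted p = 0.0366) and by -5.174 on day 31 (0.0120). The 23 nt form of miR-222-3p with its 5′ end at +2 differed by -3.072 on day 13 (limma adjusted p = 0.0397) and -3.506 on day 31 (0.0197). For the 25 nt form of miR-221-3p the difference at 31 d was -3.441 (limma adjusted p = 0.0342). After centring none of these 5 passed.

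The slope of miR-221-5p over its lengths had 1 sign in every table of 31 d and the other in both tables of 3 d. It was -0.5638 per nt at 31 d against 0.8621 at 3 d, in log2 units, and this difference was not tested. The 31 d tables had -0.024, -1.40 and -0.26 for numbers 1, 2 and 3, so that number 2 carried most of the mean, and the 3 d tables had 0.78 and 0.94. Medians of all tested alignments over the same lengths sloped by 0.19, -0.50 and 0.22 per nt in the 31 d tables. In the 3 d tables they sloped by -0.16 and -0.58.

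Alignments outside 18 to 26 nt were present in the windows as well. Longer than 26 nt, MIR221 had 30 entries above 0 and 20 at 0 over the 8 tables, and MIR222 had 26 above 0 and 5 at 0. Under 18 nt, MIR221 had 1 above 0 and 1 at 0, and MIR222 had 4 above 0 and 5 at 0. In the authors' deposited tables the 28 nt form of miR-222-3p had log2 ratios of 3.20 and 5.37 in the 3 d tables, 2.45, 2.76 and 0.62 in those of 13 d, and 1.12, -1.32 and 4.33 in those of 31 d. It was above 0 in 7 of 8 tables, and the exception was 31 d number 2.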

How the results depend on the processing

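No paired analysis was possible because the pairing is already inside each deposited ratio, and the fits shown are of these paired values. TMM, DESeq2's size factors and Wald test, filters on mean reads, the fit without the pairing, mean lengths and shares of reads at a 5′ end were not run, since they need counts; miR-221-5p has too few forms of 20 to 24 nt. Unknown depth limits single forms most.

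miR-222-3p was above 0 at 3, 13 and 31 d under the alternatives run. Calls made by a setting at 3 d were miR-221-3p over 20 to 24 nt (1.75) and miR-222-3p over whole arms (1.97) or all listed lengths (2.35). Also called at 3 d was miR-221-5p (1.76) without 13 d number 3 and 31 d number 2, left out for their dependence on length. The median by length also fell at 3 d number 3, which stayed in, from 2.32 at 18 nt to 0.019 at 26 nt. On centring miR-222-3p was called at 13 d (1.43) and 31 d (1.85). Signs of uncalled values turned. On centring, miR-221-3p was 0.30 at 13 d and 0.70 for 31 d minus 3 d, miR-222-3p 1.02 and 1.44 for 13 d and 31 d minus 3 d, and miR-221-5p 0.27 for 31 d minus 13 d. As a mean over the forms miR-221-3p was 0.17 at 13 d. For 31 d minus 13 d, miR-222-3p was -0.0052 as a mean over the forms, -0.23 over whole arms and -0.22 over all listed lengths, and miR-221-5p was 0.26 over whole arms. Without 13 d number 3 and 31 d number 2, miR-221-3p was 0.46 at 13 d, and miR-221-5p 0.18 at 13 d, 0.20 at 31 d and 0.016 for 31 d minus 13 d. The slope per nt was 0.0024 for miR-221-5p minus that of all alignments and -0.016 for miR-221-3p over 20 to 24 nt. The cause was not tested for any of these.

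With tables left out in turn, miR-221-3p ran from 0.65 to 2.76 at 3 d (called without number 1, limma adjusted p = 0.0446), from -0.30 to 0.46 at 13 d and from -2.77 to -0.66 for 13 d minus 3 d (called without 3 d number 1, limma adjusted p = 0.0491). miR-221-5p ran from -1.34 to 0.18 at 13 d, -1.31 to 0.20 at 31 d, -3.10 to -1.58 for 13 d minus 3 d (called without 13 d number 1, limma adjusted p = 0.0482, or number 2, 0.0371), -3.07 to -1.56 for 31 d minus 3 d (called in 4 of 8 fits; lowest limma adjusted p = 0.0288) and -0.95 to 0.85 for 31 d minus 13 d. miR-222-3p ran from -1.29 to 0.32 for 13 d minus 3 d, -1.25 to 0.36 for 31 d minus 3 d and -0.39 to 0.35 for 31 d minus 13 d. The slope of miR-221-5p ran from -0.16 to 0.17, and the difference of the 5′ ends of miR-222-3p at the same length from -0.27 to 0.51.

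Groups called were 284 at 3 d (243 higher, 41 lower), 447 at 13 d (134 and 313), 388 at 31 d (89 and 299), 457 for 13 d minus 3 d (58 and 399) and 466 for 31 d minus 3 d (63 and 403). Centred, they were 60 higher and 211 lower, 234 and 312, 220 and 233, 310 and 286, and 248 and 208; with groups of at least 1 form they were 2047, 2195, 1375, 2208 and 2607. At 3 d fitted alone there were 77, and 249 at 31 d without 13 d number 3 and 31 d number 2. Leaving out tables gave 43 (without 3 d number 3) to 377 groups at 3 d, 217 (without 31 d number 2) to 458 at 31 d, 277 to 459 for 13 d minus 3 d and 284 to 530 for 31 d minus 3 d, and for single alignments 900 to 2989 at 3 d, 2104 to 3696 at 13 d, 878 to 2587 at 31 d, 1910 to 3710 for 13 d minus 3 d and 1910 to 4333 for 31 d minus 3 d.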
